A study of Mus musculus with 12 samples.

Results

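The 43 genes described here encode the machinery of mitosis, and their transcripts were followed in mouse bone marrow-derived dendritic cells (DC) over 24 h of exposure to poly(I:C), a synthetic analogue of viral double-stranded RNA that matures DC. Members were the probe sets whose array annotation names exactly 1 gene, and that gene on the list. Of the 43 genes, 42 had such a probe set, 97 probe sets in all of the 45101 on the array, and only Ccnb1 (cyclin B1) had none. In total 73 member probe sets of 41 genes were bright enough to be tested, while 24 were not, among them all 3 probe sets of Cenpf, a kinetochore protein. The groups were the 1, 3, 6, 12 and 24 h cells and the 0 h cells, all from C57BL/6 mice, with 2 arrays per time. Each array belongs to 1 of 2 replicate experiments, called experiments 1 and 2, each made with cells of a single mouse, which gives n = 2 throughout. The labels give an age of 3 to 4 months in 1 field and of 8 to 10 weeks in another, 6 days of culture in GM-CSF at 10 ng/ml, and poly(I:C) at 2.5 µg/ml, and the study's methods give another dose of both. The methods add that the mice were female and that the cells were selected for CD11c. No array holds cells kept without poly(I:C) for 1 to 24 h, so an effect of poly(I:C) and one of time in culture cannot be told apart.

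Mitosis is the step of the cell cycle in which duplicated chromosomes are condensed, attached to the spindle and parted between daughter cells. Cyclin-dependent kinase 1 with its cyclins starts it, kinetochores and the spindle checkpoint hold it until every chromosome is attached, and the anaphase-promoting complex (APC/C), a ubiquitin ligase, ends it by marking cyclins and securin for destruction. Most of these genes are transcribed only in dividing cells, late in the cycle, through MuvB complexes with B-MYB and FOXM1. Bone marrow cultures with GM-CSF hold dividing precursors, and mature DC are cells that no longer divide.

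Promoters of genes of this class often carry a CHR element (TTTGAA), the site of MuvB complexes, next to CCAAT boxes, the site of NF-Y. RefSeq promoter windows on GRCm38.p6, 250 bases before to 50 bases after the start of transcription, were matched for 35 of the 43 genes. Read on both strands (TTTGAA or TTCAAA, and CCAAT or ATTGG), CHR letters stood in 26 of the 35 windows (74.3%), against 18.1% of the windows of 27025 genes. CCAAT box letters stood in 26 of the 35 member windows (74.3%), against 37.9% of all windows, and both motifs in 23 (65.7%), against 7.12%. Before the start itself, the CHR letters were found in 12 of the 35 member windows (34.3%), against 16.3% of all windows, and in the other 14 members with the letters they lay at or after it. Matches overlapped each other in 2 of the 35 member windows. These are letters found, not binding that was measured. The 3 sequences shown are the 150 bases before the start of Smc2 (a condensin ATPase), Ncapd2 (a condensin subunit) and Cdc20 (an activator of the APC/C), chosen because each is 1 of the 2 genes of its role group with the smallest F-test p and holds both motifs in that stretch, printed 5′ to 3′ on the strand of the gene with the motif letters in capitals.
Smc2 (chr4:52439071-52439220, plus strand): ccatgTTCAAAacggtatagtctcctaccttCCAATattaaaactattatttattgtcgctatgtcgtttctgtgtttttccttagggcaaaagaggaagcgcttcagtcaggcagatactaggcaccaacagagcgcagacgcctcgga
Ncapd2 (chr6:125191587-125191736, minus strand): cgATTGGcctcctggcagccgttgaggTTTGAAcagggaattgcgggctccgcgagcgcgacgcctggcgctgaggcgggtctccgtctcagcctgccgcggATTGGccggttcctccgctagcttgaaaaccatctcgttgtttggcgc
Cdc20 (chr4:118437344-118437493, minus strand): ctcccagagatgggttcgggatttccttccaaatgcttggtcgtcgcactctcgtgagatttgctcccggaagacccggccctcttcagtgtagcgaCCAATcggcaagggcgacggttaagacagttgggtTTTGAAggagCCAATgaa

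The arrays were comparable in brightness. Per array, the median intensity of all probe sets lay between 70.9 and 91.4, and 19.5% to 23.1% of intensities were under 16. Among markers of DC, Itgax read between 16176 and 24684 on every array, Ciita 150.6 to 565 and Ccr7 39.9 to 7853.8, while Flt3 was not above 89.9. The summed intensity of the 12 DC markers was 136000 to 148800 at 12 and 24 h, against 84700 to 111000 at 0 h. That sum includes Cd86 and MHC class II genes such as H2-Aa, which the methods count among markers of DC maturation. Cd86 read 1139 and 933 (0 h) and 13320 and 9143 (24 h), and H2-Aa 26420 and 17143, then 34716 and 35908. Batf3 read 1109 and 944 (0 h) and 565 and 875 (24 h), and Zbtb46 415 and 247, then 165 and 318. Of 11 DC markers tested, 3 were higher and 0 lower at 12 h, where 10.6% and 20.5% of all genes were. At 24 h 4 were higher and 1 lower, where 11.4% and 17% were. The lower one was Irf4 (log2 fold change -1.76), which read 1364 and 458 at 24 h, against 2305 and 3219 at 0 h. Of the 11 markers of early myeloid progenitors only Gata2 and Sox4 were bright enough to be tested, Kit, Cd34, Mpo and Elane did not exceed 162.7 on any array, and the summed intensity of the 11 was 1145 and 1206 (0 h), 706 and 786 (12 h) and 1043 and 661 (24 h). Sox4, a transcription factor of progenitors, fell at 12 and 24 h too, with log2 fold changes of -3.30 ± 0.54 (12 h) and -2.17 ± 0.54 (24 h). It read 419 and 529.5 (0 h), 48.3 and 22.1 (12 h) and 197 and 39.3 (24 h), whereas Gata2 was not called by its brightest probe set. Of the 3 tested probe sets of these 2 genes together, 1 was higher at each of 6, 12 and 24 h. Among macrophage and monocyte markers, Csf1r read 22071 to 32347, Lyz2 27440 to 48952 and Cd14 5572 to 15300. Of 8 such markers tested, 1 was lower and 3 were higher at 12 h, where 20.5% and 10.6% of all genes were. At 24 h 2 were lower (Ccr2 and C5ar1) and 2 higher (Fcgr1 and Mertk), where 17% and 11.4% were. Ccr2, a chemokine receptor of monocytes, read 298 and 165 at 24 h, against 4353 and 2885 at 0 h (-3.90 ± 0.18). Markers of mast cells (0 of 7 tested), B cells (1 of 5), erythroid cells (1 of 4) and T and NK cells (1 of 7) were near background. The neutrophil markers S100a9 and Camp did not exceed 109.7, whereas Mmp8 read 16988 to 34531 and S100a8 read 1509 to 3401. The sum of the 8 neutrophil markers was 22140 to 37830 at 12 and 24 h, against 19850 to 26030 at 0 h. Whether other cells took part in the changes below was not tested.

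Little moved during the first 6 h. At 1 and 3 h no member probe set passed the test against 0 h (limma, Benjamini-Hochberg adjusted p at 0.05 over 22519 probe sets), where the shares of all probe sets tested at 1 h were 0.0533% higher and 0% lower, and those at 3 h 1.01% higher and 0.0444% lower. At an unadjusted p under 0.05, limma gave no member at 1 h (0 of 73) and, at 3 h, 2 higher and 0 lower. On the scale of log2(intensity + 16), the median log2 fold change of the 41 genes, each by its brightest probe set, was -0.01 at 1 h and 0.08 at 3 h, beside -0.02 and -0.06 over all 10985 genes tested. At 6 h 1 of 73 member probe sets was lower, 1 of 2 tested for Cenpa, and none was higher, where 1.95% of all probe sets were lower and 3.62% higher (limma, unadjusted p under 0.05: 3 lower and 1 higher). The median was -0.16 at 6 h, beside -0.15 over all genes. The call of Cenpa at 6 h was lost without either 0 h array or either 6 h array.

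Most member calls came at 12 and 24 h, and nearly all were falls. At 12 h 28 of 73 member probe sets (38.4%) were lower than at 0 h, where 18.7% of all probe sets tested were, and 1 was higher, where 9.32% were. At 24 h 32 of 73 (43.8%) were lower, where 17.5% of all probe sets were, and again 1 was higher, where 9.23% were. By gene, with 1 probe set each, 17 of 41 were lower at 12 h, where 20.5% of all 10985 genes were. At 24 h 24 were lower, where 17% of all genes were. At both times 16 were lower, a count not made over all genes. Of the 24, 20 were at least 2-fold lower at 24 h, as were 1179 of the 1868 called lower over all genes. Only Tpx2, a spindle assembly factor that activates Aurora A, was higher. The median log2 fold change was -1.02 (12 h) and -1.06 (24 h), beside -0.20 and -0.13 over all genes. With each array centred on its median, it was -0.71 (12 h) and -0.82 (24 h), beside 0.11 and 0.11 over all genes. That scaling turned the balance of calls over all probe sets, which at 12 h became 14.5% higher and 9.79% lower (members, 1 and 18 probe sets), and at 24 h 14.1% higher and 11.4% lower (members, 1 and 24). In bulk RNA of this kind, fewer dividing cells and less RNA of these genes per cell cannot be told apart.

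The counts rest heavily on single arrays. Of the 63 member calls against 0 h, 37 were lost when the 0 h array of experiment 1 was left out, 23 when that of experiment 2 was, 17 and 11 when the 12 h array of experiment 1 or 2 was, and 1 to 8 for any other array. Leaving out the 0 h array of experiment 1 gave 11 probe sets lower at 12 h (7.46% of all probe sets) and 13 at 24 h (7.79%), and leaving out the other 0 h array gave 18 (7.65%) and 20 (6.79%). Leaving out the 12 h array of experiment 1 gave 13 lower at 12 h (10.7%). Of the 28 probe sets lower at 12 h, 12 averaged below the filter of 78.4 at 12 h, and so did 13 of the 32 at 24 h, so that it was their brightness at other times that brought them into the test. With no filter, 20 of all 97 member probe sets were lower at 12 h (7.66% of all 45037) and 25 at 24 h (7.2%). A filter at the 75th percentile left 19 members, of which 5 were lower at 12 h (23.9% of all 11260) and 8 at 24 h (23.2%). In 9 of the 63 calls an array read under the 16 added before the logarithm, and the size of their log2 fold change then follows that choice.

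**Figure D1:**
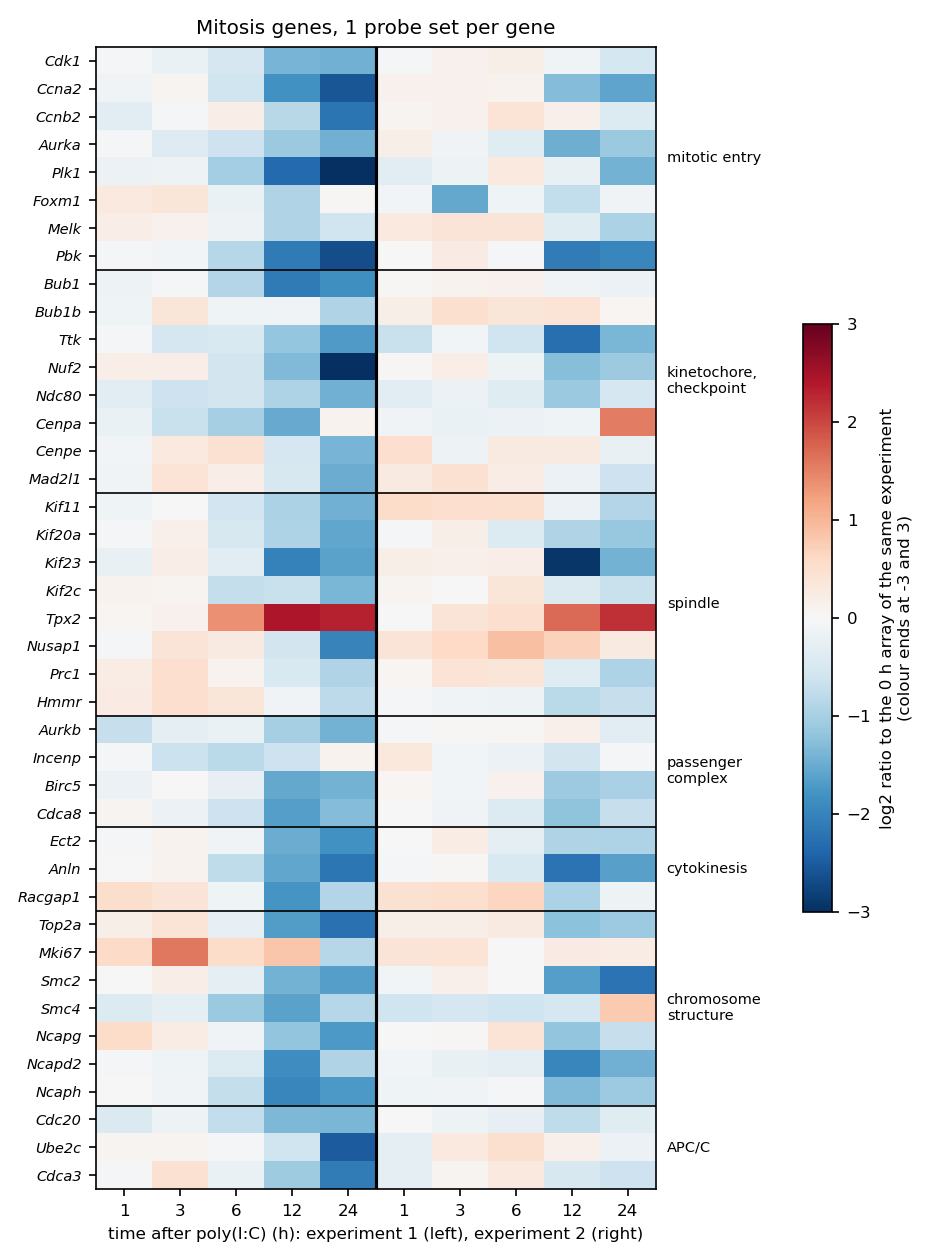
Each row is a gene, by its brightest probe set, in order of role, and each column is a time after poly(I:C) in hours in experiment 1 (left) or experiment 2 (right); colour gives the log2 ratio of intensity + 16 to 0 h within that experiment, blue for lower and red for higher. Most rows are pale up to 6 h and blue at 12 and 24 h, while Tpx2 is red.

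**Figure D2:**
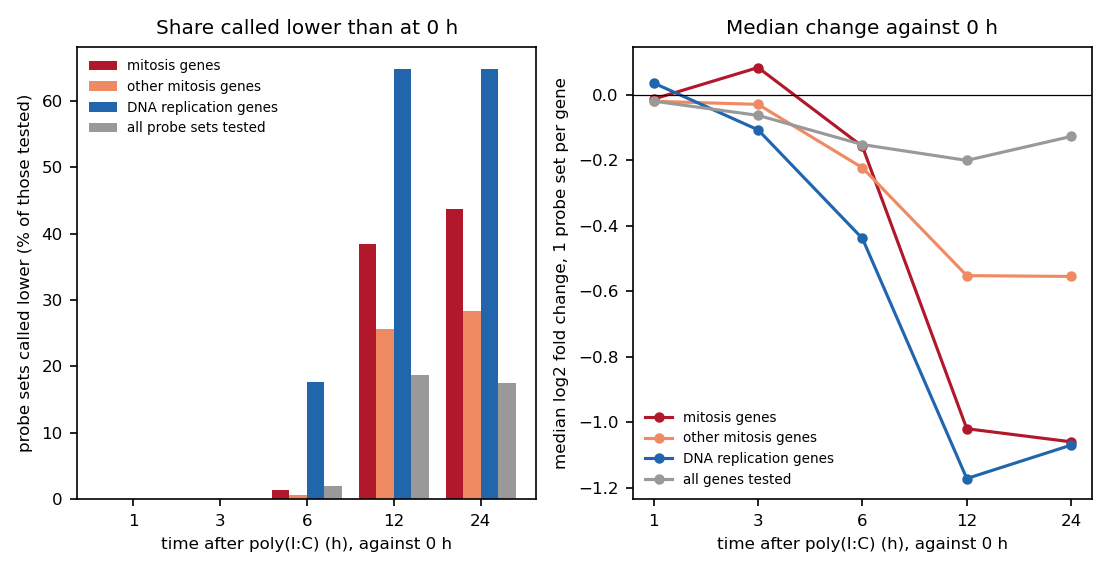
Left, the percentage of probe sets tested that were called lower than at 0 h (limma, adjusted p at 0.05) at each time in hours, for the mitosis genes, other mitosis genes, DNA replication genes and all probe sets tested; right, the median log2 fold change by gene. The bar of the mitosis genes is 1.37% at 6 h, 38.4% at 12 h and 43.8% at 24 h, and that of the DNA replication genes is already 17.6% at 6 h.

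Among kinases and cyclins of mitotic entry most calls came at 24 h. Of 8 genes tested, 3 were lower at 12 h and 6 at 24 h, beside the 20.5% and 17% over all genes, none was higher, and the median log2 fold change was -1.05 (12 h) and -1.29 (24 h). Pbk, a MAPKK-like mitotic kinase, had intensities of 497 and 539.9 (0 h), 474 and 539 (1 h), 469.6 and 642 (3 h), 266 and 526 (6 h), 102 and 113 (12 h) and 64.5 and 128 (24 h), given here and below as experiment 1 and experiment 2. Every 12 and 24 h value lay below every earlier one, with log2 fold changes of -2.12 ± 0.27 (12 h, adjusted p = 0.000419) and -2.31 ± 0.27 (24 h, adjusted p = 0.000273), ± SE, which is 4.33-fold and 4.95-fold lower. Its step from 6 to 12 h alone was -1.67 ± 0.27 (adjusted p = 0.024). Pbk and the other genes given array by array for the smallest F-test p of their group were picked on these same arrays. A lack of overlap between their late and early arrays, here and below, is therefore no separate result.

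Ccna2, cyclin A2, the partner of Cdk2 and Cdk1 in S and G2 phase, read 685 and 853 (0 h), 637 and 928 (1 h), 721 and 935 (3 h), 444 and 925 (6 h), 182 and 336 (12 h) and 103 and 275 (24 h). It too had no overlap between the 12 and 24 h arrays and the earlier ones, and fell with log2 fold changes of -1.56 ± 0.26 (12 h, adjusted p = 0.00202) and -2.07 ± 0.26 (24 h, adjusted p = 0.000428). Its other probe set fell likewise, with -1.004 ± 0.30 (12 h) and -1.75 ± 0.30 (24 h), the 12 h call being lost without any 1 of the 0 and 12 h arrays. Aurka (Aurora A, which matures centrosomes) fell at both times as well, with -1.29 ± 0.24 (12 h) and -1.28 ± 0.24 (24 h). Cdk1 itself (log2 fold change -0.98 ± 0.30), Ccnb2 (cyclin B2, -1.30 ± 0.39) and Plk1 (a kinase of entry and spindle assembly, -2.33 ± 0.58) were lower at 24 h but were not called at 12 h. The call was lost under 11 of 21 alternatives for Cdk1, 6 of them a single array left out, under 8 of 20 for Ccnb2, either 0 h array and the 24 h array of experiment 1 among them, and for Plk1 without the 0 h or the 24 h array of experiment 1. Plk1 read 6.72 and 64.4 at 24 h, against 201 and 198 at 0 h, and its log2 fold change was -3.16 with a pseudocount of 1 and -1.47 with 64. Foxm1, the transcription factor of the G2 and M genes, and Melk, a kinase, passed the test at no time.

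Among kinetochore and checkpoint genes 1 of 8 tested was lower at 12 h (Ttk, the checkpoint kinase Mps1), which is 12.5% beside 20.5% over all genes, and 3 at 24 h (Ttk, Nuf2 and Mad2l1), or 37.5% beside 17%, and the median was -0.92 and -0.99. Mad2l1, the checkpoint protein that holds Cdc20, read 1175 and 1108 (0 h), 1090.1 and 1340.3 (1 h), 1576 and 1538 (3 h), 1342 and 1306 (6 h), 832 and 972 (12 h) and 405 and 717 (24 h). Its levels at 3 h were the highest in both experiments and those at 24 h the lowest, with a log2 fold change of -1.06 ± 0.23 (adjusted p = 0.0076), a call lost without the 0 h array of experiment 1. Nuf2, a subunit of the Ndc80 complex that grips microtubules, had 4.88 and 136 at 24 h, against 260.4 and 307 at 0 h, and its log2 fold change was -2.41 ± 0.58, with the lower value in experiment 1. With a pseudocount of 1 it was -3.32 and with 64 -1.57, and the call was lost without either 0 h array. The calls of Ttk were lost without either 0 h array too.

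Cenpa encodes the histone H3 variant that marks the centromere. Its probe set with the smallest p read 345 and 154 (0 h), 241 and 93.1 (1 h), 128 and 72.6 (3 h), 61 and 15.7 (6 h), 46.4 and 75.3 (12 h) and 390.1 and 612 (24 h). Up to 6 h each value was below the one before it in both experiments. At 6 h the log2 fold change was -2.33 ± 0.51 (adjusted p = 0.0272), whereas at 24 h both arrays were above both 0 h arrays. The brighter probe set read 1243 and 1124 (0 h), 1086 and 1051 (1 h), 776 and 978 (3 h), 615 and 994 (6 h), 423 and 1025 (12 h) and 1332 and 3263 (24 h). It was not called lower at any time, so the probe sets of Cenpa disagree at 6 and 12 h, and the 12 h call of the dimmer one was lost without either 0 h array or the 12 h array of experiment 1. Both rose between 12 and 24 h, by 2.74 ± 0.51 (adjusted p = 0.0246) and 1.64 ± 0.35 (adjusted p = 0.0336), where 1.87% of all probe sets rose, and neither passed the test against 0 h at 24 h. No other member rose in that step. Both calls were lost when either 3 h array or the 12 h array of experiment 1 was left out, and leaving out either 6 h array gave 1 called member probe set in this step.

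Bub1, a checkpoint kinase, passed the test at no time, with 383 and 449 (0 h), 345 and 461 (1 h), 367 and 484 (3 h), 201 and 493 (6 h), 76.4 and 416 (12 h) and 95.7 and 395 (24 h). The arrays of experiment 1 were low at 12 and 24 h, while those of experiment 2 stayed close to their 0 h level. Bub1b (BubR1) also passed no test, with log2 fold changes between -0.77 and 0.77 over its 3 probe sets, and neither did Ndc80 or Cenpe, the kinetochore motor.

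Spindle motors and assembly factors held the single gene that rose against 0 h. Of 8 genes tested, 2 were lower and 1 was higher at 12 h, and 4 were lower and 1 higher at 24 h, where 20.5% and 17% of all genes were lower and 10.6% and 11.4% higher, with medians of -0.51 and -0.97. Kif23, a kinesin of the central spindle, read 392 and 358 (0 h), 331 and 408 (1 h), 455 and 403 (3 h), 305 and 412 (6 h), 84.9 and 33.4 (12 h) and 117 and 124 (24 h). Its 12 and 24 h arrays lay well below all others, with log2 fold changes of -2.47 ± 0.33 (12 h, adjusted p = 0.000558) and -1.52 ± 0.33 (24 h, adjusted p = 0.00791), the first of them 5.53-fold. The call at 24 h, not that at 12 h, was lost without either 0 h array. Kif20a, a kinesin of cytokinesis, fell at both times (log2 fold change -0.91 ± 0.28 and -1.34 ± 0.28), but the 12 h call was lost under 14 of 20 alternatives and the 24 h call without the 0 h array of experiment 1. Kif11, the kinesin that pushes spindle poles apart, and Prc1, which bundles antiparallel microtubules, were lower at 24 h by their brightest probe sets, calls lost without the 0 h array of experiment 1. Nusap1, a microtubule stabiliser, was not called at any time.

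Tpx2 rose by 1 of its 4 tested probe sets. The brightest read 433 and 428 (0 h), 449 and 432 (1 h), 475 and 559.7 (3 h), 1137 and 613 (6 h), 2379.7 and 1414 (12 h) and 2223 and 2002 (24 h). Every array from 12 h on was higher than all 0, 1 and 3 h arrays, and the log2 fold change was 2.05 ± 0.27 at 12 h (adjusted p = 0.000519) and 2.25 ± 0.27 at 24 h (adjusted p = 0.000322). The other 3 tested probe sets stayed between 6.27 and 160.1 on all 12 arrays and were not called at any time, with log2 fold changes at 24 h of -0.70 ± 0.43, -1.37 ± 0.59 and -0.11 ± 0.53. The gene's probe sets therefore disagree on whether its transcript rose, and which stretch of the transcript each one reads was not analysed here. The rise was called under each of the 21 alternatives tried.

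**Figure D3:**
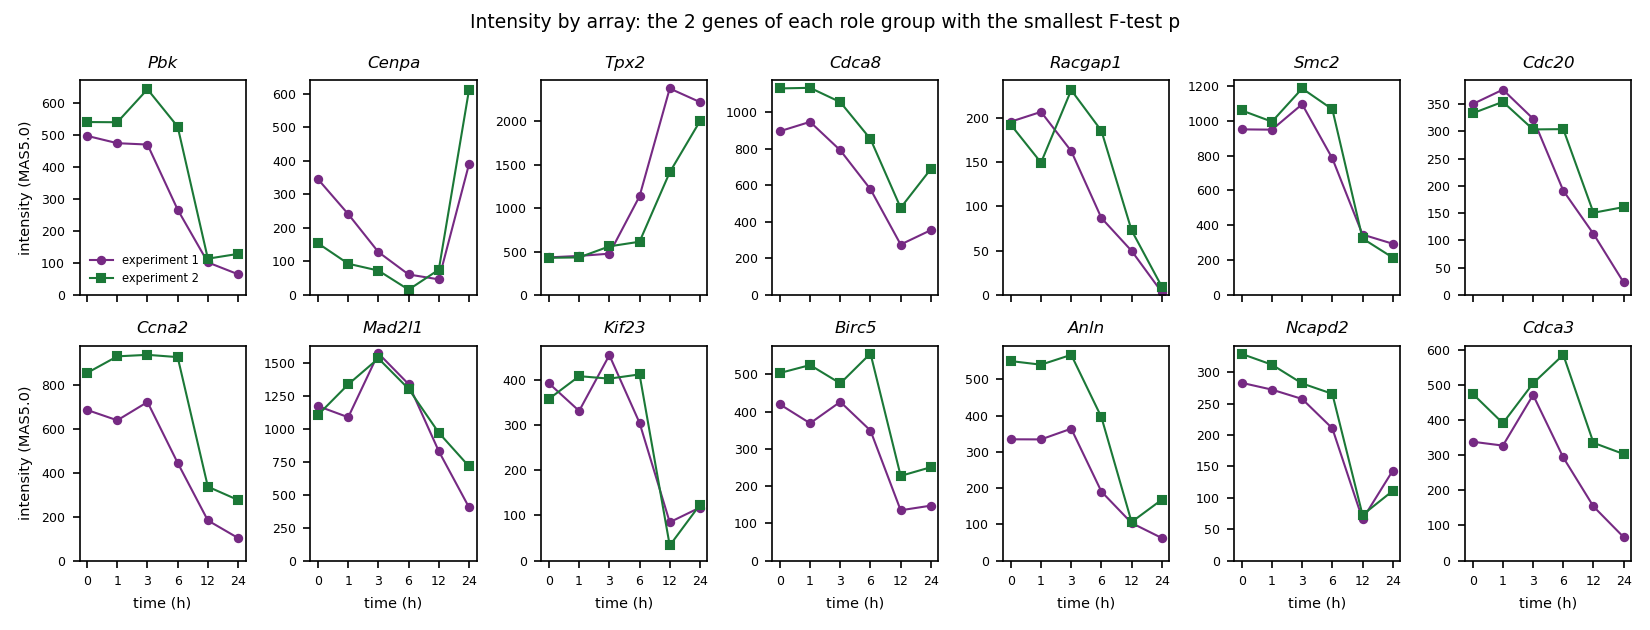
Intensity (MAS5.0, linear axis from 0) on each of the 12 arrays against time in hours for the 2 genes of each role group with the smallest F-test p, with experiment 1 as circles and experiment 2 as squares. The genes were chosen for change over these same times, so the share of them that fell is no separate result. Of the 14 genes, 12 are below their 0 h values in both experiments at 24 h. Tpx2 climbs to 2223 and 2002, and the Cenpa probe set dips at 6 h and returns to 390.1 and 612.

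The chromosomal passenger complex, which corrects wrong attachments and starts cytokinesis, divided into genes that fell and genes that did not pass the test. Cdca8 (borealin) and Birc5 (survivin), subunits that bring the complex to the centromere, were lower at 12 and 24 h. Cdca8 had 897 and 1132 (0 h), 949 and 1135 (1 h), 793 and 1057 (3 h), 579 and 855 (6 h), 276 and 478 (12 h) and 355 and 690.3 (24 h) by its brightest probe set. All 12 h values were below all earlier ones of their experiment and below the 24 h values, with log2 fold changes of -1.43 ± 0.21 (12 h, adjusted p = 0.000949) and -0.9999 ± 0.21 (24 h, adjusted p = 0.00688). Birc5 read 419.5 and 504 (0 h), 369 and 525 (1 h), 426 and 476 (3 h), 349 and 556 (6 h), 135 and 227 (12 h) and 148 and 251 (24 h), with no overlap between the 12 and 24 h arrays and the earlier ones, and log2 fold changes of -1.31 ± 0.23 (12 h, adjusted p = 0.00227) and -1.19 ± 0.23 (24 h, adjusted p = 0.004). The 24 h calls of both genes were lost without the 0 h array of experiment 1. Aurkb (Aurora B), the kinase of the complex, and Incenp, its scaffold, were not called by any of their 6 tested probe sets. The brightest Incenp probe set read 3204 and 2652 (0 h), 2088 and 1802 (12 h) and 3474 and 2603 (24 h).

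All 3 cytokinesis genes were lower at 12 h, by each of their 4 tested probe sets, where 20.5% of all genes and 18.7% of all probe sets were. Anln (anillin), which ties the contractile ring to the membrane, read 335 and 550.4 (0 h), 334 and 540.5 (1 h), 364 and 568 (3 h), 190.4 and 396 (6 h), 104 and 106 (12 h) and 62.3 and 168 (24 h). Its 12 and 24 h arrays were below all others, with log2 fold changes of -1.88 ± 0.29 (12 h, adjusted p = 0.00117) and -1.89 ± 0.29 (24 h, adjusted p = 0.00123), and both falls were called under each of the 20 alternatives that tested it. Racgap1, which partners with Kif23 in the central spindle, read 196 and 192 (0 h), 207 and 149 (1 h), 162 and 231 (3 h), 86.8 and 185 (6 h), 49.7 and 72.8 (12 h) and 3.1 and 9.4 (24 h) by the probe set with the smallest p. The late arrays were below all others, with log2 fold changes of -1.46 ± 0.39 (12 h, adjusted p = 0.0192) and -3.25 ± 0.39 (24 h, adjusted p = 0.000304), and a further step of -1.79 ± 0.39 between 12 and 24 h. Both 24 h readings are under 16, and the 24 h value was -4.90 with a pseudocount of 1 and -1.88 with 64, while the 12 h call was lost without any 1 of the 0 and 12 h arrays. It was the single member probe set to fall between 12 and 24 h, where 2.25% of all probe sets fell. No member fell in this step with no filter, with a filter at the 75th percentile, with a pseudocount of 64 or with no replicate block. The same held with only the arrays of the comparison. This call of Racgap1 was also lost when any 1 of the 0, 3, 6 and 12 h arrays was left out. The brighter probe set of Racgap1 had 362 and 356 (0 h), 526 and 495 (1 h), 475 and 509 (3 h), 331 and 567 (6 h), 95.4 and 177 (12 h) and 189 and 317 (24 h). It was lowest at 12 h, called there at -1.36 ± 0.28, and at 24 h its log2 fold change of -0.52 ± 0.28 did not pass, so the probe sets of Racgap1 disagree at 24 h. Its 12 h call was lost without the 0 h or the 12 h array of experiment 1. Ect2, which Racgap1 recruits, fell with -1.19 ± 0.33 (12 h) and -1.37 ± 0.33 (24 h), calls lost without either 0 h array.

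Genes of chromosome structure had 5 of 7 lower at both 12 and 24 h, beside 20.5% and 17% lower over all genes. Each of the 5 was at least 2-fold lower. Over all genes called lower, 1360 of 2250 were at 12 h and 1179 of 1868 at 24 h. Smc2 read 951 and 1059 (0 h), 949 and 995 (1 h), 1095 and 1186 (3 h), 784 and 1066 (6 h), 347 and 324 (12 h) and 294 and 214 (24 h). Its late arrays sat far below the rest and were alike in both experiments, with log2 fold changes of -1.54 ± 0.22 (12 h, adjusted p = 0.000806) and -1.93 ± 0.22 (24 h, adjusted p = 0.000237), the last of them 3.82-fold. Its 2 dimmer probe sets fell at 24 h too (-1.81 ± 0.36 and -2.26 ± 0.35). Ncapd2 had 283 and 329 (0 h), 272 and 312 (1 h), 257 and 282 (3 h), 211 and 266 (6 h), 65.7 and 72.7 (12 h) and 143 and 111 (24 h), lowest at 12 h in both experiments, with log2 fold changes of -1.92 ± 0.25 (12 h, adjusted p = 0.000502) and -1.18 ± 0.25 (24 h, adjusted p = 0.00732). The call at 24 h was lost without the 0 h array of experiment 2. Ncaph and Ncapg, the kleisin and a repeat subunit of condensin I, and Top2a, the topoisomerase that untangles sister chromatids, were the others to fall. Top2a read 162 and 395 at 24 h, against 831 and 863 at 0 h (-1.67 ± 0.30), and its 12 h call was lost without the 0 h or the 12 h array of experiment 1. The calls of Ncapg by its brightest probe set were lost under 16 of 20 alternatives at 12 h and 15 of 20 at 24 h.

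Mki67 (Ki-67, the common marker of cycling cells) and Smc4 (the partner ATPase of Smc2) were not called. Mki67 read 693 and 818 (0 h), 1041 and 1080.0 (1 h), 2093 and 1096 (3 h), 1023 and 816 (6 h), 1247 and 965 (12 h) and 374 and 951 (24 h). It was at its highest at 3 h in both experiments (log2 fold change 0.99 ± 0.41, adjusted p = 0.608), and only the 24 h array of experiment 1 lay below the 0 h arrays. Smc4 had 3033 and 3238 (0 h), 2279.9 and 2148 (1 h), 2459.8 and 2297 (3 h), 1399.9 and 2136 (6 h), 979 and 2225 (12 h) and 1675 and 5619 (24 h) by its brightest probe set. At 24 h its array of experiment 1 was below both 0 h arrays and that of experiment 2 above both.

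Of the genes tied to the APC/C, Cdc20 was lower at 12 h, and Cdc20 and Cdca3 at 24 h. The probe set of Cdc20 with the smallest p read 350.3 and 333 (0 h), 377 and 354 (1 h), 323 and 304 (3 h), 191 and 304 (6 h), 112 and 151 (12 h) and 22.9 and 161 (24 h). Both late pairs were below 0 h, lowest in experiment 1 at 24 h, and its log2 fold change at 24 h was -2.11 ± 0.49 (adjusted p = 0.0104), a call lost without the 0 h array of experiment 1. Its brightest probe set had -1.05 ± 0.28 (12 h) and -0.87 ± 0.28 (24 h), both called, but the 24 h call was lost under 16 of 20 alternatives and the 12 h call under 5. Cdca3, a trigger of entry that APC/C degrades, read 339 and 475 (0 h), 328 and 392 (1 h), 472 and 505 (3 h), 294 and 587 (6 h), 154 and 336 (12 h) and 66.8 and 304 (24 h). At 24 h both arrays were below both 0 h arrays (-1.36 ± 0.39, adjusted p = 0.027), and the call was lost without either 0 h array or the 24 h array of experiment 1. The other tested probe set of Cdca3 was not called at 24 h, with a log2 fold change of -0.07, so its probe sets disagree there. Ube2c, the E2 enzyme of the APC/C, had 66.8 and 560.3 at 24 h, against 448 and 638 at 0 h, and did not pass the test.

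Probe sets of 1 gene could be compared for 20 genes, and in none were they called in opposite directions. At 12 h some were called and some not in 9 genes, and at 24 h in 8, and log2 fold changes of 1 gene differed by more than 1 in 6 genes at each of these times. Beside Tpx2, Racgap1 and Cenpa, the widest gaps were in Kif2c, Hmmr and Cdca8. Kif2c (MCAK, a kinesin that takes microtubules apart) read 46.2 and 16.9 at 12 h, against 217 and 180.4 at 0 h, by a probe set that fell by 2.24 ± 0.44 (adjusted p = 0.00429). By its brightest it read 109.9 and 134 at 12 h, against 185 and 188 at 0 h (-0.56 ± 0.34), and by the third 163 and 70.8, against 209 and 114, neither of them called. The probe set that fell ends in _x_at, a class whose probes can also match other transcripts. Called probe sets of Cdc20 (that with the smallest p), Hmmr (at 12 h) and Ncaph end in _x_at too.

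Hmmr, a spindle and hyaluronan binding protein, was lower at 12 h by 2 of 4 probe sets (-1.13 ± 0.32 and -1.88 ± 0.49) and not by its brightest, which read 179.8 and 162 at 12 h, against 194 and 298 at 0 h. The 2 calls were lost without the 0 h or the 12 h array of experiment 1. None of the 4 was called at 24 h. Of the 3 probe sets of Cdca8, 1 had an intensity of 25.6 at 12 h in experiment 1 beside 263 in experiment 2, and fell by 2.29 ± 0.48, a call lost without the 0 h array of experiment 1, whereas the dimmest fell short of the threshold at -0.89 ± 0.30 (adjusted p = 0.0516).

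**Figure D4:**
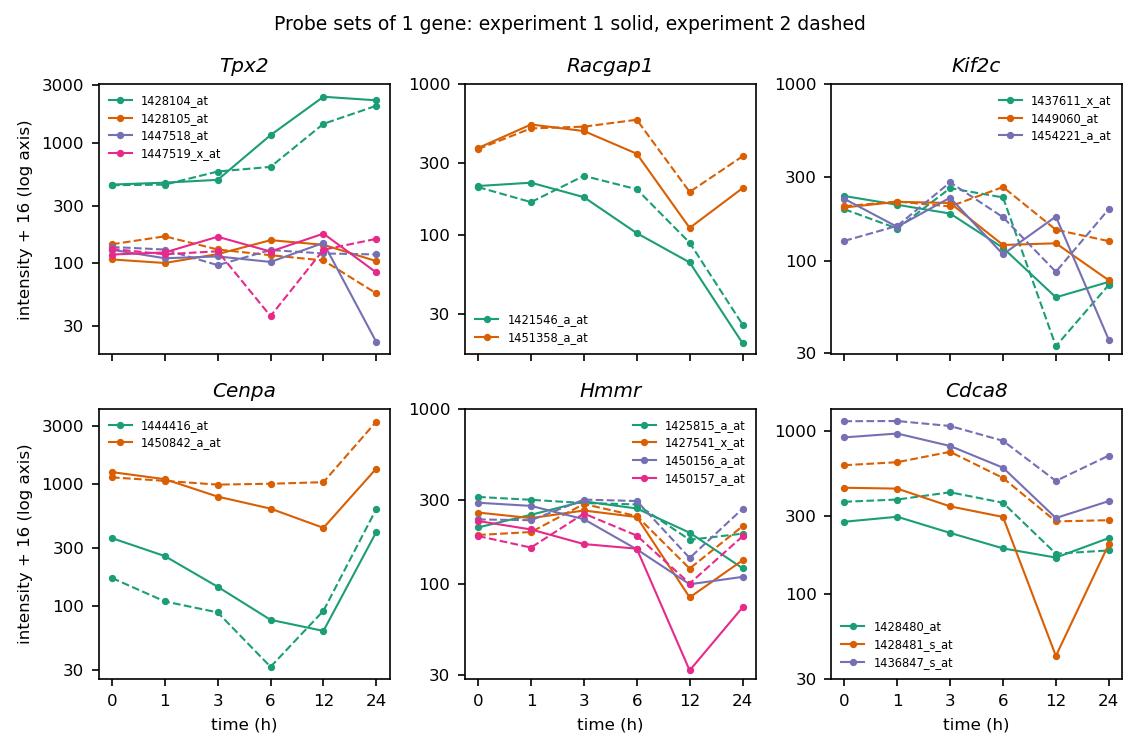
Intensity + 16 on a log axis against time in hours for each tested probe set (colour) of the 6 genes whose probe sets differed most, with experiment 1 solid and experiment 2 dashed. The brightest Tpx2 probe set climbs away from the other 3, the Racgap1 probe sets part at 24 h, and both Cenpa probe sets turn up at 24 h.

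The experiments had the same direction for most genes and different sizes. Of 41 genes, 33 lay below 0 h in both experiments at 12 h, as did 33 at 24 h. Of all 10985 genes tested, 5471 did at 12 h and 4413 at 24 h. For the 12 h arrays the median log2 ratio to 0 h within an experiment was -1.15 in experiment 1 and -0.74 in experiment 2, beside -0.19 and -0.21 over all genes tested. At 24 h it was -1.44 and -0.70, beside -0.07 and -0.17. At 24 h 29 genes were at least 2-fold below 0 h in experiment 1, 13 in experiment 2 and 12 in both. Of all 10985 genes, 1243, 2087 and 676 were. The 24 h ratio was lower in experiment 1 for 34 of 41 genes, and for 4706 of all 10985. The 6 h arrays already differed, with medians of -0.35 and 0.11 and 35 of 41 genes lower in experiment 1. Over all genes the 6 h medians were -0.16 and -0.13, and 5770 of 10985 were lower in experiment 1. With 1 array per time in each experiment, the difference between them was not tested. Genes with no call, 12 of 41, were Aurkb, Bub1, Bub1b, Cenpe, Foxm1, Incenp, Melk, Mki67, Ndc80, Nusap1, Smc4 and Ube2c.

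**Figure D5:**
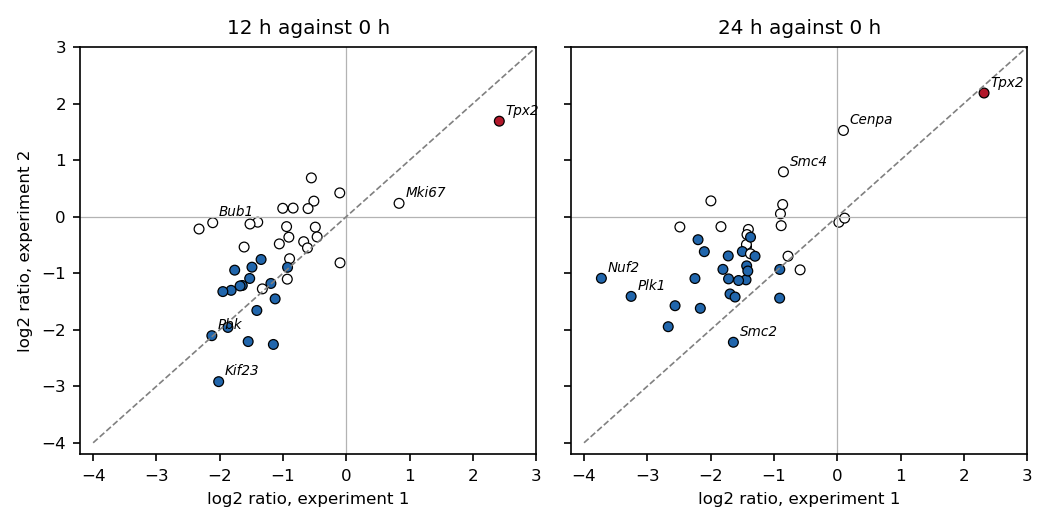
Log2 ratio of intensity + 16 to 0 h within an experiment for each of the 41 genes, experiment 1 on the horizontal axis and experiment 2 on the vertical axis, at 12 h (left) and 24 h (right); blue genes were called lower, red higher and white not called, and the dashed line marks equal ratios. Most points lie left of and above the line, with medians of -1.44 in experiment 1 and -0.70 in experiment 2 at 24 h.

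Between consecutive times, the step from 6 to 12 h held most of the falls. In it 9 of 73 member probe sets were lower and none was higher (limma, unadjusted p under 0.05: 30 lower and 1 higher), where 1.13% of all were lower and 0.608% higher. They were Pbk, Ccna2, Kif23, Birc5, Racgap1, Top2a, Smc2, Ncapd2 and Ncaph, with log2 fold changes between -2.39 and -1.25. Most of these 9 calls were lost when any 1 of the 0, 1, 3, 6 and 12 h arrays was left out. More members were called in this step only without a 24 h array or with only the arrays of the comparison. In the steps from 1 to 3 h (0.0666% of all probe sets lower, 0.861% higher) and from 3 to 6 h (0.0622% lower, 0.528% higher) no member passed the test, and at an unadjusted p under 0.05 limma gave 1 lower and 0 higher in the first of these and 3 lower and 1 higher in the second. From 12 to 24 h 1 fell and 2 rose, all described above.

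Other genes of the cycle gave a broader picture. Of 102 other mitosis genes 83 were tested, and at 12 h 24 were lower and 3 higher, beside 20.5% and 10.6% of all genes, and at 24 h 27 were lower and 3 higher, beside 17% and 11.4%, with a median log2 fold change of -0.55 at both times. Cks1b, a subunit that docks on cyclin-dependent kinases, fell with -2.14 ± 0.35 (12 h) and -2.84 ± 0.35 (24 h) and read 352 and 1199 at 24 h, against 4756 and 4771 at 0 h. Ncapg2 (condensin II), Cdca5 (sororin, which guards cohesin) and Cenpi (inner kinetochore) fell at both times, with log2 fold changes at 12 h of -1.20, -1.53 and -2.63. Pttg1, securin, which the APC/C destroys at anaphase, went the other way. It read 3800.5 and 5356 (0 h), 12557 and 11905 (6 h), 14702 and 20639.6 (12 h) and 12324 and 17551 (24 h). Its log2 fold change was 1.44 ± 0.18 (6 h, adjusted p = 0.000841), 1.95 ± 0.18 (12 h, adjusted p = 5e-05) and 1.70 ± 0.18 (24 h, adjusted p = 0.00013). Lin54, the MuvB subunit that binds CHR elements, was higher at 6 and 12 h (0.80 ± 0.20 and 1.26 ± 0.20), and the APC/C activator Fzr1 and subunit Cdc26 were higher at 24 h (0.68 ± 0.19 and 0.58 ± 0.19).

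Some DNA replication genes, which act in S phase before mitosis, were lower at 6 h already. Of 42 genes tested, 5 were lower at 6 h, where 2.3% of all genes were. How far these 5 calls rest on single arrays is not given here. At 12 h 26 were lower, where 20.5% of all genes were, and at 24 h 27, where 17% were. The medians were -0.44, -1.17 and -1.07 at 6, 12 and 24 h. By probe set 13 of 74 were lower at 6 h (17.6%), where 1 of 73 mitosis probe sets was and 1.95% of all probe sets were. The difference between the lists was not tested. Rrm2, the small subunit of ribonucleotide reductase, fell with -2.61 ± 0.23 (12 h) and -3.38 ± 0.23 (24 h), and the helicase subunits Mcm5 and Mcm3 had -1.79 and -2.39 at 12 h, both called. Mcm3 was among those lower at 6 h (-1.18 ± 0.25, adjusted p = 0.0245). Rfc2, a clamp loader subunit, was the single gene of the list called higher at 24 h (0.97 ± 0.19, adjusted p = 0.00422).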

How the data were processed

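Per the labels and the methods, the authors computed MAS5.0 intensity values for each Affymetrix Mouse 430 2.0 array; the deposited intensities are linear and scaled to a mean of 500 without the top and bottom 2% of an array. The 64 control probe sets were left out of 45101. GEO's platform annotation names 1 gene for 34945 probe sets, several for 932 and none for 9160; members were taken from the first kind. All 12 arrays entered a single linear model of log2(intensity + 16) in limma 3.58.1 (R 4.3.3), whose terms were time and experiment, moderated by empirical Bayes along an intensity trend, and Benjamini-Hochberg adjustment over the 22519 probe sets whose mean was at or above the median (78.4). A probe set was called at an adjusted p under 0.05, and "rose", "fell", "higher" and "lower" are used of calls. The error beside a log2 fold change is its SE.

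The experiment is a block because, per the methods, each came from 1 mouse. As a check of the pairing, each array's deviation from its time's mean was set against those of the other arrays of its experiment: r was 0.256 to 0.66 (median 0.573, 15 pairs of times), a description across probe sets. Precision is limited by having 2 arrays per time.

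Genes are given by the brightest tested probe set for counts and medians. Given array by array are the 2 genes per role group with the smallest F-test p, any member called higher, and genes whose probe sets disagree (called and not called, or log2 fold changes over 1 apart). The members and lists were chosen with earlier results of these data known. Figures used matplotlib 3.10.9 in Python 3.11.15. The fit was tested on simulated data.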

Additional observations from a re-analysis of the deposited data

How the results depend on the processing

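Of the 63 member calls against 0 h, 20 held under every alternative that tested them (pseudocounts of 1 and 64, other filters and scalings, no replicate block, no intensity trend, subsets of arrays), and none was reversed. Falls of Pbk, Anln and Smc2 and the rise of Tpx2 are among the 20 at both 12 and 24 h. The causes of the changes below were not tested.

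Shares in brackets are over all probe sets tested in the same setting. With no replicate block, 14 member probe sets were lower at 12 h (8.6%), 17 at 24 h (7.42%) and none (0) at 6 h (0.195%). Without that block the steps gave 0 lower from 6 to 12 h and 0 higher and 0 lower from 12 to 24 h. Over all probe sets those 3 counts were 0 too. With each array centred on its median, 18 were lower at 12 h (9.79%), 1 was higher at 6 h (4.59%) and 5 were lower from 6 to 12 h (0.546%). The medians were then 0.16 at 3 h and -0.71 at 12 h, beside 0.01 and 0.11 over all genes. Quantile normalization gave 1 higher at 6 h (4.26%) and a median of 0.16 at 3 h, beside -0.05 over all genes. A filter at the 75th percentile, which leaves fewer member probe sets, gave 5 lower at 12 h, 8 at 24 h and 0 at 6 h, 5 lower from 6 to 12 h, 1 higher and 0 lower from 12 to 24 h, and medians of 0.027 at 1 h and 0.18 at 3 h. With no filter, 5 were lower from 6 to 12 h (0.329%) and 0 from 12 to 24 h (0.635%). A pseudocount of 64 gave 0 lower from 12 to 24 h (2.26%). With no intensity trend, 1 was lower from 6 to 12 h (0.0933%), and 0 higher (0.413%) and 3 lower (0.631%) from 12 to 24 h. With only the arrays of each comparison, which leaves few residual degrees of freedom, 14 were lower at 24 h (6.39%). At 3 h 3 were higher (4.4%) and 3 lower (4.09%), and at 6 h 1 higher (6.59%) and 2 lower (8.94%). From 1 to 3 h 1 was higher (3.67%) and 1 lower (3.37%), and from 3 to 6 h 1 higher (5.95%) and 5 lower (6.64%). From 6 to 12 h 1 was higher (3.98%) and 17 lower (6.07%), and from 12 to 24 h 0 were lower (0.95%).

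Leaving out each array in turn, with the lone array of a time assumed to vary like the others, gave 11 to 42 lower at 12 h, 13 to 44 at 24 h and 0 to 1 at 6 h. Higher at 24 h were 1 to 3, and at 6 h 0 to 1. From 6 to 12 h 0 to 24 were lower and 0 to 1 higher, and from 12 to 24 h 0 to 14 were lower and 0 to 5 higher. Medians ran from -0.14 to 0.17 (1 h), -0.11 to 0.24 (3 h), -0.34 to 0.02 (6 h), -1.25 to -0.70 (12 h) and -1.39 to -0.76 (24 h).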
